A study of Mus musculus with 10 samples.

Results

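Chromatin accessibility was examined at Tigit and at 5 related receptor genes of T cells, which were Cd226, Cd96, Pdcd1, Lag3 and Havcr2. Peaks of the deposited count table were assigned to a gene when they lay in its body or within 10 kb of it on mouse build GRCm38. This gave 60 of 97385 peaks, with 6 at Tigit, 21 at Cd226, 8 at Cd96, 9 at Pdcd1, 10 at Lag3 and 6 at Havcr2, and all 60 held enough counts to be tested. The limit of 10 kb fell in gaps between peaks. The farthest peak kept was 7900 bp from Lag3, with a mean of 10.5 CPM (counts scaled to the total of the library). The nearest peak left out was 11427 bp from Havcr2, with a mean of 2.31 CPM.

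ATAC-seq, which reads out where a transposase can reach the DNA, was run on regulatory T cells (Tregs) sorted as TCRb+CD4+Foxp3-YFP+ cells from the spleen or lung of 10-day-old C57BL/6 mice. In Vps34-deficient mice (Foxp3Cre Pik3c3 fl/fl), Cre expressed from Foxp3 removed both copies of Pik3c3, the gene for the lipid kinase Vps34, in Foxp3-expressing cells. Control mice carried the same Foxp3Cre, with its YFP, and at least 1 intact Pik3c3 allele (+/+ or +/fl). There were 2 spleen control, 4 spleen Vps34-deficient, 2 lung control and 2 lung Vps34-deficient libraries, by the labels. The study's text counts the libraries as mice but gives the control and Vps34-deficient group sizes in spleen the other way round, and each spleen genotype value here rests on the labels. Which spleen and lung libraries came from the same mouse is not stated, and p-values measure the spread between these libraries. The sort took total Tregs, a mixture of central and effector cells, so fewer cells with a site open and a site less open in each cell cannot be told apart.

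TIGIT is an inhibitory receptor found on activated T and NK cells and on effector Tregs, where it has been tied to suppression of inflammatory T cell responses. It competes with the costimulatory receptor CD226 for the ligands CD155 and CD112 on antigen-presenting and tissue cells, and CD96 binds CD155 as well. PD-1 (Pdcd1), LAG-3 (Lag3) and TIM-3 (Havcr2) are inhibitory receptors of other families, whose ligands include PD-L1, MHC class II and galectin-9.

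The sequences shown here are the Tigit and Pdcd1 regions at which the results below turn, read from GRCm38 on the strand of the gene. Each was searched on both strands for AP-1 (TGANTCA), CRE (TGACGTCA), RUNX (TGTGGTT), ETS (AGGAAG), NFAT (GGAAAA), TCF/LEF (CTTTGAA), forkhead (TGTTTAC) and GATA-factor (AGATAA) letters, and capitals mark the matches. A peak is named by the distance of its centre from the gene start in bp. The Tigit peak 2430 bp downstream, in an intron, is shown by the central 300 bases of chr16:43661505-43661928. The peak 908 bp upstream is whole (chr16:43664917-43665192), and the intron peak 8791 bp downstream is shown by the centre of chr16:43655005-43655706. The Tigit promoter is given as the 250 bases before the RefSeq start (RefSeq, GRCm38.p6), which lie in the peak at chr16:43663949-43664666. The Pdcd1 intron peaks 10051 and 4274 bp downstream (chr1:94042191-94042813 and chr1:94048049-94048509) and the peak 1170 bp upstream (chr1:94053464-94053982) are shown by their central 300 bases.
Tigit 2430 bp downstream: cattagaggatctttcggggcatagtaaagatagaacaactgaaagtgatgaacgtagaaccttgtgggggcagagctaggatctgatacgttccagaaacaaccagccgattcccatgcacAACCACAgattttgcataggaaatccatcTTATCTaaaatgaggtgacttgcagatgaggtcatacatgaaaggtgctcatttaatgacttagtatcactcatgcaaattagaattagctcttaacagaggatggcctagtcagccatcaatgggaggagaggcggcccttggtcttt
Tigit 908 bp upstream: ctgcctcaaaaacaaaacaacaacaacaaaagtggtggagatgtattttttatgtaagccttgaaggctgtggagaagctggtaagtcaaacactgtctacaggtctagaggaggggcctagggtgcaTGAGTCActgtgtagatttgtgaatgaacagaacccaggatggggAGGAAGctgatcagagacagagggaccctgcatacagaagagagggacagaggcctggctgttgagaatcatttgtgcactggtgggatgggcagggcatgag
Tigit 8791 bp downstream: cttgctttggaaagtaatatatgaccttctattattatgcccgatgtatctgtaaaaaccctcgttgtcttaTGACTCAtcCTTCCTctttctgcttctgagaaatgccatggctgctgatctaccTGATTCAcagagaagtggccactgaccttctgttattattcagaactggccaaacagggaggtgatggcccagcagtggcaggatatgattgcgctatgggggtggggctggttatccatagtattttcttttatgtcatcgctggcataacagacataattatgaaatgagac
Tigit promoter: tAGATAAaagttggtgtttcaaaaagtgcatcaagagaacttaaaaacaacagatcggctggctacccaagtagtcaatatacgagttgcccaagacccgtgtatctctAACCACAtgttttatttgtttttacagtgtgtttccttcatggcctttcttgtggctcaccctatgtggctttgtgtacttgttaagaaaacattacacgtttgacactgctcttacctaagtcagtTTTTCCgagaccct
Pdcd1 10051 bp downstream: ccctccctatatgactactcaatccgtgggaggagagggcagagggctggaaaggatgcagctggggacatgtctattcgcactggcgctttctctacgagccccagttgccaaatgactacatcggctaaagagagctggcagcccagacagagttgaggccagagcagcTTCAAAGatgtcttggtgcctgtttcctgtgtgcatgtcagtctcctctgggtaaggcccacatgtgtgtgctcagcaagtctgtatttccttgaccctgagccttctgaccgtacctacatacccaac
Pdcd1 4274 bp downstream: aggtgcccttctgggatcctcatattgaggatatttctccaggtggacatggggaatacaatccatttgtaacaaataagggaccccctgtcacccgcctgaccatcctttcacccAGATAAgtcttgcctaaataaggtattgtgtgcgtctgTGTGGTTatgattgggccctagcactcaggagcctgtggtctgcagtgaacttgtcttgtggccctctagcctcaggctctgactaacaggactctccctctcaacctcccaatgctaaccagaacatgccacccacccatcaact
Pdcd1 1170 bp upstream: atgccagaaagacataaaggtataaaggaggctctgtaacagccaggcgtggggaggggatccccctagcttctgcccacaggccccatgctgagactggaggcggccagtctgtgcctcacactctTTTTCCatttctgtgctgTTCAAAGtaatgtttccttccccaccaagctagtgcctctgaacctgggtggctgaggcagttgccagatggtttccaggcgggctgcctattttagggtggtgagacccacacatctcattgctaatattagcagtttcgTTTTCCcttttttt

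In these windows, AP-1 letters occurred at the 908-bp and 8791-bp Tigit peaks, with 1 and 2 matches. RUNX and GATA letters both occurred in the Tigit 2430-bp window, in the Tigit promoter and in the Pdcd1 4274-bp window. TCF/LEF letters occurred in the Pdcd1 windows 10051 bp downstream and 1170 bp upstream. Over all 60 peaks, AP-1 letters were in 7, RUNX in 9, ETS in 24, NFAT in 16, TCF/LEF in 8, GATA in 15, forkhead in 3 and CRE in 0. Of 97250 windows of 300 bases at the peaks of the series, 13% held AP-1, 10.8% RUNX, 43.2% ETS, 21.9% NFAT, 7.71% TCF/LEF, 15.1% GATA, 4.34% forkhead and 0.846% CRE letters. A match describes the letters and is not a binding site.

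The 10 libraries held 9405823 to 22439699 counts each, with the 3 smallest from lung. The promoter peaks of 8 of 9 T cell and Treg marker genes summed to 181 to 233 CPM, with Foxp3 at 44.9 to 64.4 CPM in every library. Of 6 myeloid markers, Lyz2 and Csf1r had no promoter peak. The summed promoter signal of the other myeloid markers was 38.0 to 39.1 CPM in spleen control, 25.9 to 33.3 in spleen Vps34-deficient, 42.1 to 48.0 in lung control and 26.5 to 28.3 in lung Vps34-deficient libraries. This sum was lower in every Vps34-deficient library than in the controls of its tissue, as the Tigit signal was, and Cebpa was called lower for genotype over its summed peaks (log2 fold change -0.67, edgeR adjusted p = 0.00281). In lung, 2 of 5 tested myeloid markers were called lower, Cebpa (-0.90, adjusted p = 0.0104) and Itgam (-0.87, adjusted p = 0.0197, edgeR), and Itgam was at -0.08 in spleen (adjusted p = 0.931, edgeR). The shares of all genes called for genotype were 2.26% lower and 1.24% higher in lung. Averaged over tissues they were 2.78% lower and 3.54% higher (edgeR). The promoter sum of 3 of 5 CD8 T and NK cell markers went the other way in lung, at 21.0 to 24.5 CPM in control and 30.4 to 30.5 in Vps34-deficient libraries, and overlapped in spleen (24.9 to 29.7 and 23.5 to 33.6), with Cd8a called higher (0.63, edgeR adjusted p = 0.0468) and Ncr1 and Klrb1c without a promoter peak. For 2 of 5 lung epithelium markers the sums were 33.2 to 34.7 CPM in spleen control, 27.4 to 31.3 in spleen Vps34-deficient, 23.2 to 29.2 in lung control and 24.6 to 25.3 in lung Vps34-deficient libraries, with Cdh1 called lower for genotype (-0.30, edgeR adjusted p = 0.0271) and Nkx2-1, Sftpc and Sftpb without a promoter peak. For 2 of 4 endothelium markers the sums overlapped between genotypes in each tissue, at 24.5 to 33.2 CPM in all libraries, and Cdh5 and Tek had no promoter peak. The B cell markers with a promoter peak summed to 12.8 to 18.1 CPM.

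For tissue, 2 of 5 tested B cell, 1 of 5 myeloid, 2 of 5 lung epithelium, 2 of 4 endothelium and 1 of 4 CD8 T and NK cell markers were called higher in lung over their summed peaks, as Tigit was, and none lower, beside 16.6% higher and 14.4% lower of all genes (edgeR). They were Tek (log2 fold change 1.51), Csf1r (1.66), Klrb1c (0.67), Nkx2-1 (0.61), Cdh5 (0.51), Epcam (0.47), Cd79b (0.44) and Ebf1 (0.25), with edgeR adjusted p from 7.02e-06 to 0.0459. Among markers that did not pass, Cd79a was at -0.14, Spi1 at -0.19 and Sftpb at -0.63. Of 9 T cell and Treg markers, Ikzf2 was called lower in lung (-0.20, edgeR adjusted p = 0.0114) and none higher. The part of these other cell types in the genotype and tissue results was not tested. Whether Pik3c3 was deleted was not checked here.

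Tigit (chr16:43648867-43664146, minus strand) had lower accessibility in Vps34-deficient than in control Tregs of both tissues, and higher accessibility in lung than in spleen for both genotypes. Summed over its 6 peaks, the signal was 92.7 and 102 CPM in spleen control, and 69.5, 63.7, 62.4 and 69.2 CPM in spleen Vps34-deficient libraries. It was 137 and 165 CPM in lung control, and 92.4 and 97.4 CPM in lung Vps34-deficient libraries. No Vps34-deficient library reached a control of its tissue, lung controls were highest, spleen Vps34-deficient libraries lowest, and the values of spleen control and lung Vps34-deficient libraries overlapped. Averaged over tissues, the log2 fold change for loss of Vps34 was -0.59 ± 0.06 (SE, adjusted p = 2.82e-05, edgeR quasi-likelihood test, Benjamini-Hochberg adjusted for 17619 genes). In the same test, 2.78% of all genes were called lower and 3.54% higher at an adjusted p below 0.05. The average log2 fold change of lung over spleen was 0.63 ± 0.06 (adjusted p = 2.29e-06), where 16.6% of genes were called higher and 14.4% lower.

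Within each tissue, the summed Tigit signal fell by 0.55 on the log2 scale in spleen (SE 0.08, adjusted p = 0.00517) and by 0.64 in lung (SE 0.09, adjusted p = 0.00179, edgeR with Benjamini-Hochberg adjustment). Of all genes, 0.182% were called lower and 0.0397% higher in spleen, and 2.26% lower and 1.24% higher in lung. The lung-over-spleen difference was 0.69 ± 0.09 in control (adjusted p = 0.000725) and 0.59 ± 0.08 in Vps34-deficient Tregs (edgeR adjusted p = 0.000323). In these comparisons 9.29% of genes were called higher and 5.19% lower in control, and 11.1% higher and 6.95% lower in Vps34-deficient Tregs. The interaction, which compares the genotype difference between the tissues, was -0.10 ± 0.12 on the log2 scale (adjusted p = 0.929). The spleen call was lost without either spleen control library, and with the replicate number as a block (-0.53, edgeR adjusted p = 0.209). The average genotype and tissue effects kept their calls without any single library.

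**Figure D1:**
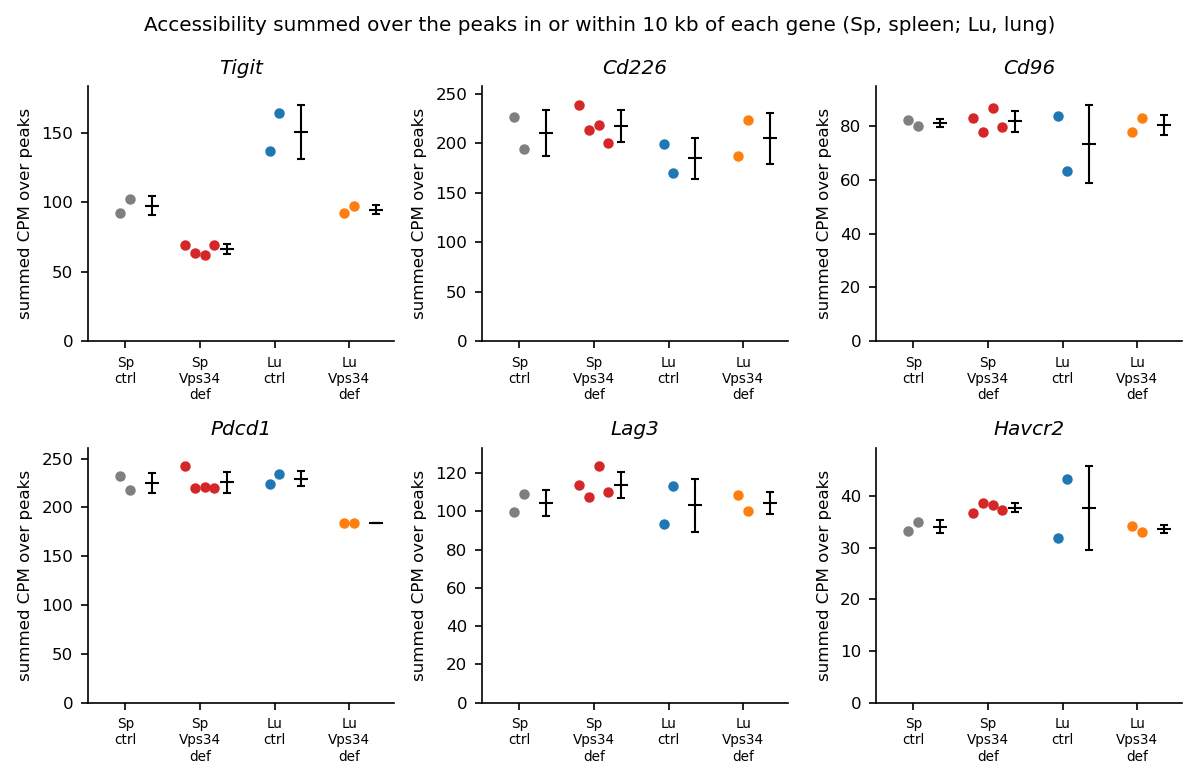
Summed CPM over the peaks in or within 10 kb of each gene, 1 panel per gene, with a point for each of the 10 libraries and a black dash and bar for the mean and SD of each group. Tigit runs from 62.4 to 165 CPM and separates the genotypes in both tissues, whereas Pdcd1 is lowest in the 2 lung Vps34-deficient libraries.

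The change at Tigit was greatest at the intron peak 2430 bp downstream of the start. It held 11.1 and 11.8 CPM in spleen control against 4.17, 4.04, 3.79 and 5.89 CPM in spleen Vps34-deficient libraries. In lung it held 17.8 and 30.5 CPM in control against 5.04 and 6.99 CPM in Vps34-deficient libraries. All Vps34-deficient libraries of both tissues lay below all controls, and the 2 lung controls differed most from each other. The log2 fold change for loss of Vps34 was -1.36 ± 0.22 in spleen (adjusted p = 0.00127) and -2.05 ± 0.27 in lung (adjusted p = 5.62e-05) by edgeR, with Benjamini-Hochberg adjustment for all 97109 peaks. Both calls held without any single library. Lung exceeded spleen by 1.17 ± 0.25 in control Tregs (edgeR adjusted p = 0.00222), a call lost without spleen control replicate 1 or lung control replicate 2. Since the lung comparison of genotypes and the control comparison of tissues share the lung control libraries, their values are not independent.

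Upstream of the gene, the 908-bp peak that holds the AP-1 letters TGAGTCA behaved alike in direction. Its signal was 8.82 and 10.7 CPM in spleen control and 5.42, 4.83, 5.87 and 5.02 CPM in spleen Vps34-deficient libraries. Lung controls held 11.7 and 15.5 CPM and lung Vps34-deficient libraries 6.98 and 5.08 CPM, with no overlap between genotypes in either tissue. The log2 fold changes were -0.88 ± 0.20 in spleen (adjusted p = 0.0228) and -1.19 ± 0.24 in lung (adjusted p = 0.00442, edgeR with Benjamini-Hochberg adjustment). The spleen call was lost without spleen control replicate 1 or 2 or without spleen Vps34-deficient replicate 2 or 4, and with the replicate number as a block (adjusted p = 0.171). The lung call was lost without lung control replicate 2 or lung Vps34-deficient replicate 2.

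The intron peak 8791 bp downstream, with both other AP-1 matches, fell in lung. It held 9.14 and 10.4 CPM in lung control and 6.66 and 3.39 CPM in lung Vps34-deficient libraries, a log2 fold change of -0.96 ± 0.27 (edgeR, Benjamini-Hochberg adjusted p = 0.039). In spleen the groups overlapped, with 10.7 and 9.50 CPM in control and 9.88, 7.46, 7.76 and 7.61 CPM in Vps34-deficient libraries. In lung the call depended on single libraries, since 6 of the 10 fits without a library lost it, and it was also lost with the lung libraries alone (adjusted p = 0.181) or the replicate block (adjusted p = 0.0676).

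The Tigit promoter peak changed with tissue. It held 48.3 and 56.3 CPM in spleen control, 39.2, 37.1, 35.0 and 40.8 CPM in spleen Vps34-deficient, 80.5 and 93.6 CPM in lung control and 61.4 and 72.6 CPM in lung Vps34-deficient libraries. Every lung library exceeded every spleen library. Lung over spleen was 0.81 ± 0.12 in control (adjusted p = 0.000115) and 0.87 ± 0.10 in Vps34-deficient Tregs (adjusted p = 8.79e-06) on the log2 scale, by edgeR with Benjamini-Hochberg adjustment. The genotype difference was -0.46 ± 0.10 in spleen (adjusted p = 0.0231) and -0.41 ± 0.12 in lung (adjusted p = 0.0533), both below the fold threshold of 0.5 used for a call, although the genotypes did not overlap in either tissue. Without spleen control replicate 1 or spleen Vps34-deficient replicate 1 the spleen difference passed that threshold. The intron peaks 5000 and 13481 bp downstream had log2 fold changes of -0.52 and -0.40 in spleen and -0.66 and -0.56 in lung, with no overlap between genotypes but no call, and the last of them also lies within 10 kb of Zbtb20.

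**Figure D2:**
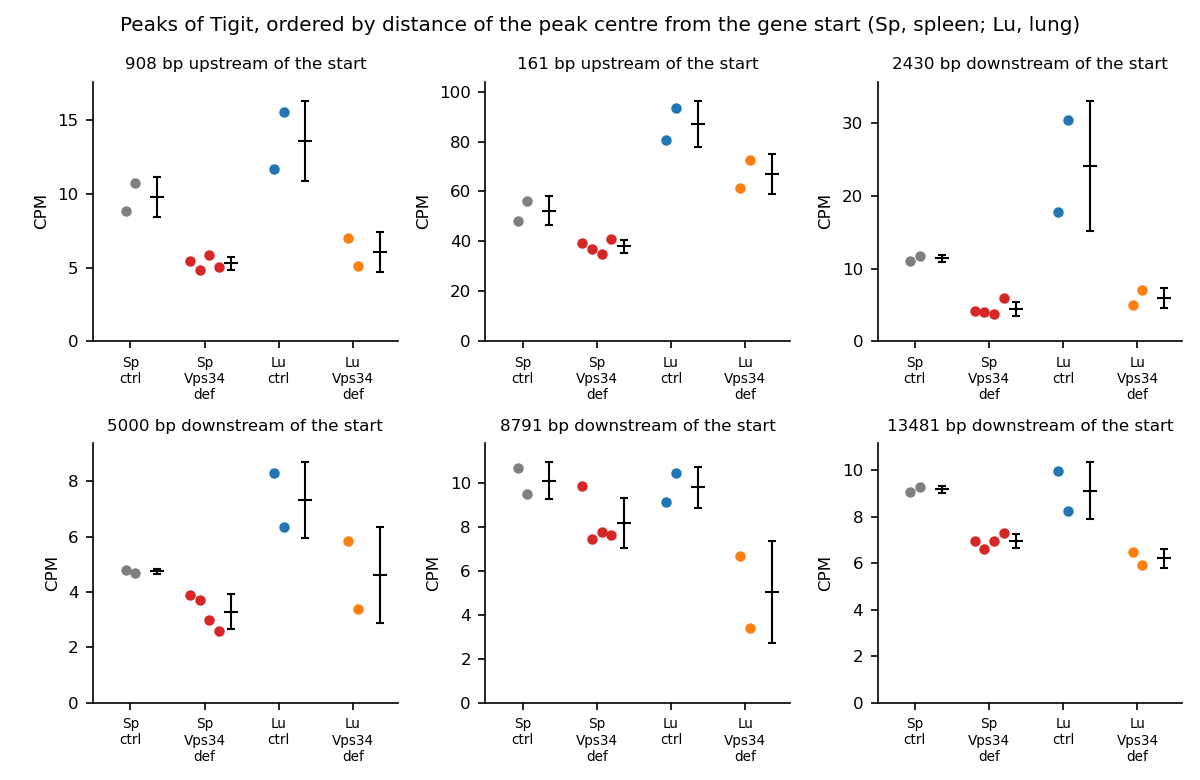
CPM at the 6 Tigit peaks, ordered by the distance of the peak centre from the gene start, with a point per library and the mean and SD of each group in black. The intron peak 2430 bp downstream ranges from 3.79 to 30.5 CPM, with every Vps34-deficient library below every control, and the promoter peak 161 bp upstream is higher in every lung library.

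Counted over the 60 peaks, loss of Vps34 in spleen gave 2 lower calls, both at Tigit, and no higher call. Over all tested peaks 1.02% were called lower and 0.441% higher. In lung, 6 peaks were called lower, with 3 at Tigit, 2 at Pdcd1 and 1 at Cd226, and none higher, where 3.74% of all peaks were called lower and 1.22% higher. These counts moved with single libraries. In spleen there were 4 lower calls without Vps34-deficient replicate 1 and 1 without control replicate 2 or Vps34-deficient replicate 2 or 4, and 1 higher call without either lung control. In lung there were 3 lower calls without control replicate 2, and 5 higher calls without control replicate 1 and 1 without spleen control replicate 2 or lung Vps34-deficient replicate 1. The median log2 fold change of the 60 peaks was 0.05 in spleen and 0.00 in lung, beside 0.05 and 0.02 over all peaks. At Tigit all 6 peaks had a fold change below 0 in both tissues. At Pdcd1 all 9 were below 0 in lung, with 5 below 0 in spleen, and at Cd226 17 of 21 were above 0 in lung.

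**Figure D3:**
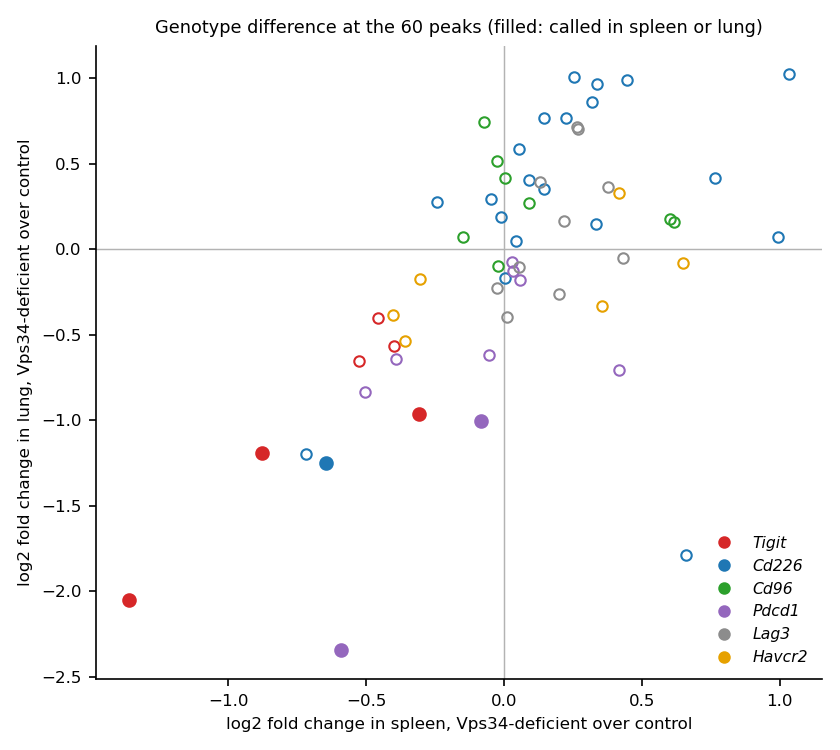
Log2 fold change of Vps34-deficient over control in spleen (horizontal) and in lung (vertical) for the 60 peaks, coloured by gene, with filled points for peaks called in either tissue. The 6 Tigit peaks all lie in the lower left, and the Pdcd1 peak 10051 bp downstream lies lowest, at -2.35 in lung.

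Interaction between tissue and genotype was called at 0% of all peaks and at none of the 60 by edgeR with Benjamini-Hochberg adjustment. At an unadjusted p below 0.05 there were 6 of the 60 and 7060 of the 97109 peaks. DESeq2 called 1 of the 60, the Pdcd1 peak 10051 bp downstream.

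Pdcd1, which encodes PD-1 (chr1:94038305-94052553, minus strand), differed between genotypes in lung and not detectably in spleen. Its summed signal was 232 and 218 CPM in spleen control and 242, 219.8, 220.7 and 219.9 CPM in spleen Vps34-deficient libraries. Lung control libraries held 224 and 235 CPM and both lung Vps34-deficient libraries 184 CPM, below every other library. The log2 fold change was 0.02 ± 0.06 in spleen (adjusted p = 0.97) and -0.29 ± 0.07 in lung (adjusted p = 0.0346, edgeR with Benjamini-Hochberg adjustment). The interaction was -0.30 ± 0.09 (unadjusted p = 0.00466, adjusted p = 0.697), so a difference between the tissues was not called. Between tissues, the sum was called lower in lung for Vps34-deficient Tregs (-0.22 ± 0.06, adjusted p = 0.0202) and not for control Tregs (0.08 ± 0.07, adjusted p = 0.466, edgeR), and the call was lost without either lung Vps34-deficient library. This call was also lost with the replicate block (edgeR adjusted p = 0.0688). Averages over both factors were not called, at -0.11 ± 0.06 for genotype (adjusted p = 0.279) and -0.09 ± 0.06 for tissue (adjusted p = 0.264, edgeR). A single peak 17111 bp downstream, which lies also within 10 kb of Neu4, gave 118 to 155 CPM of this sum, and with the gene body and promoter peaks alone the lung value was -0.54 (adjusted p = 0.00574). The lung call over all 9 peaks was lost in 7 of the 10 fits without a library. It was also lost with the lung libraries alone (adjusted p = 0.265) or the replicate block (adjusted p = 0.0975, edgeR).

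Among the 9 Pdcd1 peaks, the intron peak 10051 bp downstream had the largest fold change in lung. It held 16.1 and 14.8 CPM in lung control and 2.44 and 3.81 CPM in lung Vps34-deficient libraries. In spleen it held 8.47 and 7.99 CPM in control and 6.26, 4.28, 5.33 and 6.03 CPM in Vps34-deficient libraries. Lung control was the highest group and lung Vps34-deficient the lowest, with no overlap between any of the 4 groups. The log2 fold change for loss of Vps34 was -2.35 ± 0.27 in lung (adjusted p = 1.27e-05) and -0.59 ± 0.21 in spleen (adjusted p = 0.155, edgeR with Benjamini-Hochberg adjustment). Lung exceeded spleen by 0.98 ± 0.23 in control (adjusted p = 0.00553) and fell below spleen in Vps34-deficient Tregs by 0.77 on the log2 scale (SE 0.25, adjusted p = 0.0326). The interaction was -1.75 ± 0.34, with an unadjusted p of 3.01e-05 that did not pass adjustment over all peaks (0.201, edgeR), and DESeq2 called it (adjusted p = 0.0313). The genotype call in lung held without any single library. Each tissue call was lost without any 1 of 3 libraries, which were spleen control replicate 1, spleen control replicate 2 or lung control replicate 1 for the control Tregs, and spleen control replicate 2, spleen Vps34-deficient replicate 4 or lung Vps34-deficient replicate 1 for the Vps34-deficient Tregs. The tissue call in Vps34-deficient Tregs was also lost with the replicate block (edgeR adjusted p = 0.163) or the Vps34-deficient libraries alone (edgeR adjusted p = 0.0503).

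The intron peak 4274 bp downstream was highest in lung control Tregs. It held 15.5 and 21.4 CPM there, against 8.93 and 9.95 CPM in lung Vps34-deficient, 7.04 and 7.65 CPM in spleen control and 6.95, 6.85, 6.95 and 6.89 CPM in spleen Vps34-deficient libraries. Loss of Vps34 in lung gave a log2 fold change of -1.004 ± 0.21 (adjusted p = 0.00604) and lung over spleen in control one of 1.42 ± 0.21 (adjusted p = 0.000113, edgeR with Benjamini-Hochberg adjustment), and these share the lung controls. The genotype call was lost without lung control replicate 2 or lung Vps34-deficient replicate 1, and with the lung libraries alone (edgeR adjusted p = 0.0559).

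Upstream of Pdcd1, the 1170-bp peak with the TCF/LEF letters differed by tissue alone. It held 29.9 and 27.8 CPM in spleen control and 32.7, 29.2, 28.6 and 27.4 CPM in spleen Vps34-deficient libraries, against 14.9 and 15.8 CPM in lung control and 15.6 and 13.97 CPM in lung Vps34-deficient libraries. Every lung library lay below every spleen library, with log2 fold changes of -0.83 ± 0.15 in control (adjusted p = 0.000573) and -0.94 ± 0.14 in Vps34-deficient Tregs (adjusted p = 4.58e-05, edgeR with Benjamini-Hochberg adjustment). The intron peak 6902 bp downstream was lower in lung for Vps34-deficient Tregs alone among the calls, at 0.65 and 1.06 CPM against 2.99, 1.96, 2.53 and 1.87 CPM in spleen (edgeR log2 fold change -1.42 ± 0.44, adjusted p = 0.0274). It rested on 8 and 10 reads in the lung libraries, and it no longer passed when any 1 of 4 libraries was left out, which were replicates 1 and 3 of spleen and replicates 1 and 2 of lung Vps34-deficient Tregs. This call was lost with the replicate block too (edgeR adjusted p = 0.0962). Controls held 1.96 and 1.52 CPM in spleen and 1.28 and 1.41 CPM in lung. The peak over the Pdcd1 start itself ranged from 19.2 to 26.1 CPM and was called in no comparison.

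**Figure D4:**
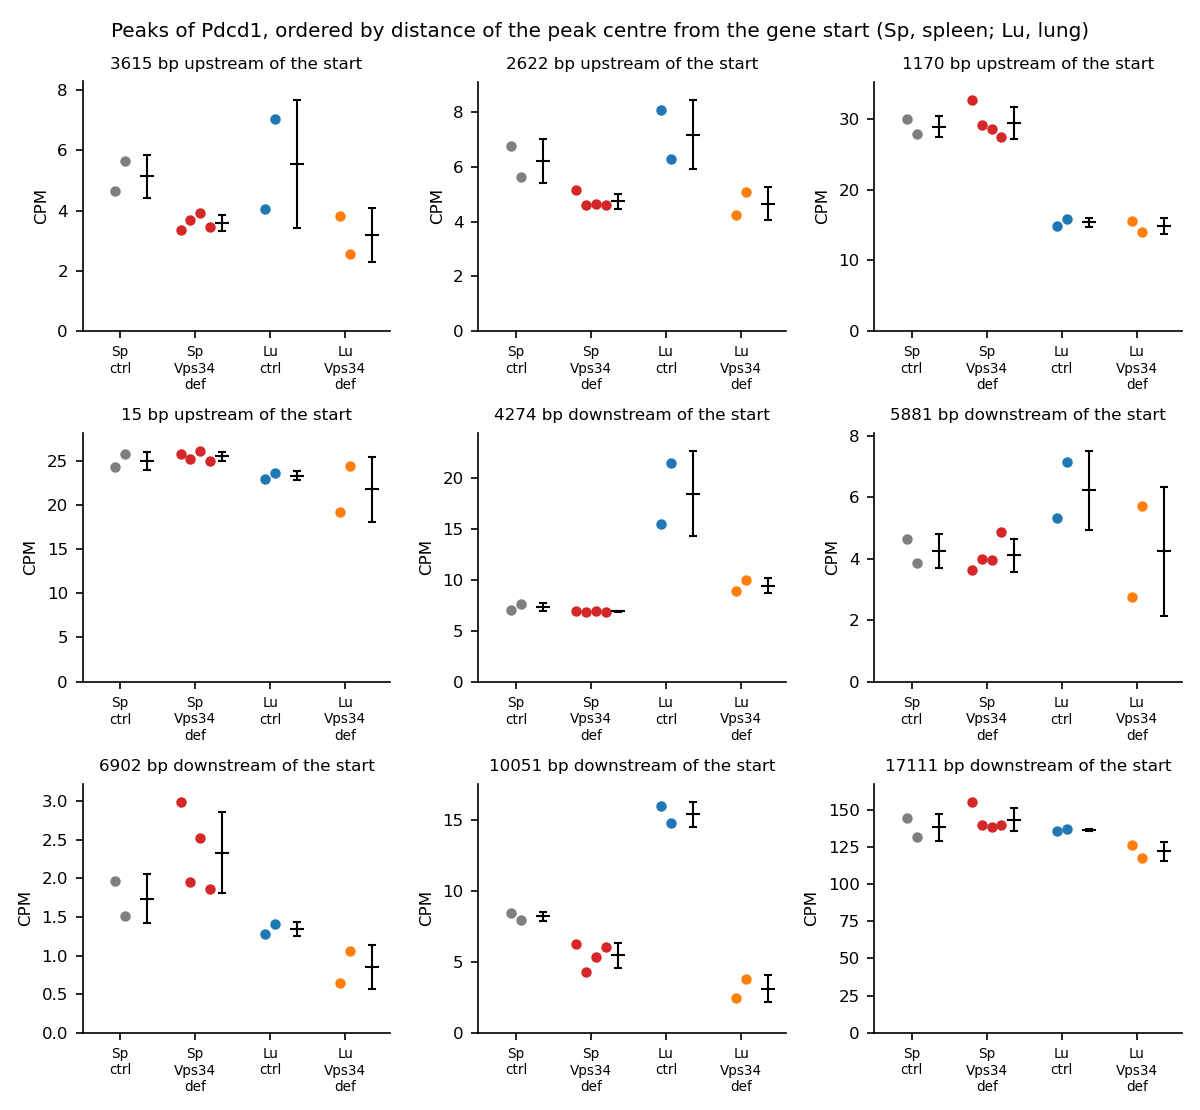
CPM at the 9 Pdcd1 peaks, ordered by the distance of the peak centre from the gene start, with a point per library and the mean and SD of each group in black. The intron peak 10051 bp downstream falls from 14.8 and 16.1 CPM in lung control to 2.44 and 3.81 CPM in lung Vps34-deficient libraries, and the peak 1170 bp upstream is lower in every lung library.

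Cd226, the costimulatory counterpart of Tigit (chr18:89176967-89272229, plus strand), showed no called change of its summed signal. It was 226 and 194 CPM in spleen control, 239, 213, 218 and 200.1 CPM in spleen Vps34-deficient, 199 and 170 CPM in lung control and 187 and 223 CPM in lung Vps34-deficient libraries, and these groups overlapped. The average log2 fold change was 0.11 ± 0.07 for loss of Vps34 (adjusted p = 0.38) and -0.07 ± 0.07 for lung over spleen (adjusted p = 0.50, edgeR with Benjamini-Hochberg adjustment). Single peaks of the gene were called in both directions. The intron peak 56903 bp downstream (chr18:89233484-89234257) held 21.5 and 29.1 CPM in lung control and 9.91 and 11.9 CPM in lung Vps34-deficient libraries. In spleen it held 17.6 and 15.8 CPM in control and 13.5, 10.4, 9.75 and 9.19 CPM in Vps34-deficient libraries, again without overlap. The log2 fold change was -1.25 ± 0.21 in lung (edgeR, Benjamini-Hochberg adjusted p = 0.000811) and -0.65 ± 0.17 in spleen (adjusted p = 0.0613), and the lung call held without any single library. This peak was also 0.68 ± 0.20 higher in lung than in spleen control Tregs (edgeR adjusted p = 0.0229), on the same lung controls. That call was lost without spleen control replicate 1 or 2, spleen Vps34-deficient replicate 2 or lung control replicate 2. It was also lost with the replicate block (edgeR adjusted p = 0.0513). No match of the 8 motifs lay in the central 300 bases of this peak.

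The tissue calls at Cd226 were mostly toward lower signal in lung. The peak just past the gene end, 95603 bp from the start, held 9.36 and 10.3 CPM in spleen control and 10.4, 9.05, 8.21 and 5.45 CPM in spleen Vps34-deficient libraries. It held 2.98 and 1.41 CPM in lung control and 2.44 and 2.75 CPM in lung Vps34-deficient libraries, below every spleen library. The log2 fold changes were -2.15 ± 0.33 in control (adjusted p = 0.000149) and -1.63 ± 0.30 in Vps34-deficient Tregs (adjusted p = 0.000526, edgeR with Benjamini-Hochberg adjustment), and both calls held without any single library. The intron peak 77189 bp downstream held 3.21 and 3.58 CPM in spleen control and 8.76, 5.81, 7.04 and 5.31 CPM in spleen Vps34-deficient libraries, against 1.49 and 1.41 CPM in lung control and 1.95 and 1.06 CPM in lung Vps34-deficient libraries. Its tissue difference was -1.15 ± 0.37 in control (adjusted p = 0.036) and -2.07 ± 0.33 in Vps34-deficient Tregs (edgeR adjusted p = 0.000114), and the call in control was lost without any 1 of the 4 control libraries. That call was also lost with the replicate block (edgeR adjusted p = 0.0624) or the control libraries alone (edgeR adjusted p = 0.0752). In spleen every Vps34-deficient library exceeded both controls at this peak, by 0.99 ± 0.27 on the log2 scale, without passing adjustment (edgeR adjusted p = 0.0688).

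Intron peaks 35397 and 42612 bp downstream of the Cd226 start were lower in lung control than in spleen control. The first held 4.01 and 3.99 CPM in spleen and 1.06 and 1.83 CPM in lung (edgeR log2 fold change -1.34 ± 0.36, adjusted p = 0.0124). The second held 9.45 and 6.34 CPM in spleen and 4.25 and 2.68 CPM in lung (edgeR log2 fold change -1.15 ± 0.29, adjusted p = 0.00762). Vps34-deficient libraries held 6.26, 5.14, 4.15 and 4.45 CPM in spleen and 2.60 and 2.96 CPM in lung at the first, and 13.6, 8.56, 11.4 and 9.76 CPM in spleen and 6.497 and 7.20 CPM in lung at the second. Lung lay below spleen at the first peak in both genotypes, and at the second in the controls and in all Vps34-deficient libraries too. Both calls were lost without spleen control replicate 1, and without lung control replicate 1 for the first or replicate 2 for the second. A last peak, 96380 bp from the start, was higher in lung control (4.47 and 2.68 CPM against 1.52 and 1.52 in spleen, edgeR adjusted p = 0.0472), a call lost in 7 of 10 fits without a library and under 7 other settings. Its Vps34-deficient libraries held 3.76, 2.81, 1.67 and 2.15 CPM in spleen and 3.09 and 6.56 CPM in lung. The Cd226 promoter peak ranged from 9.03 to 16.0 CPM and was not called.

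**Figure D5:**
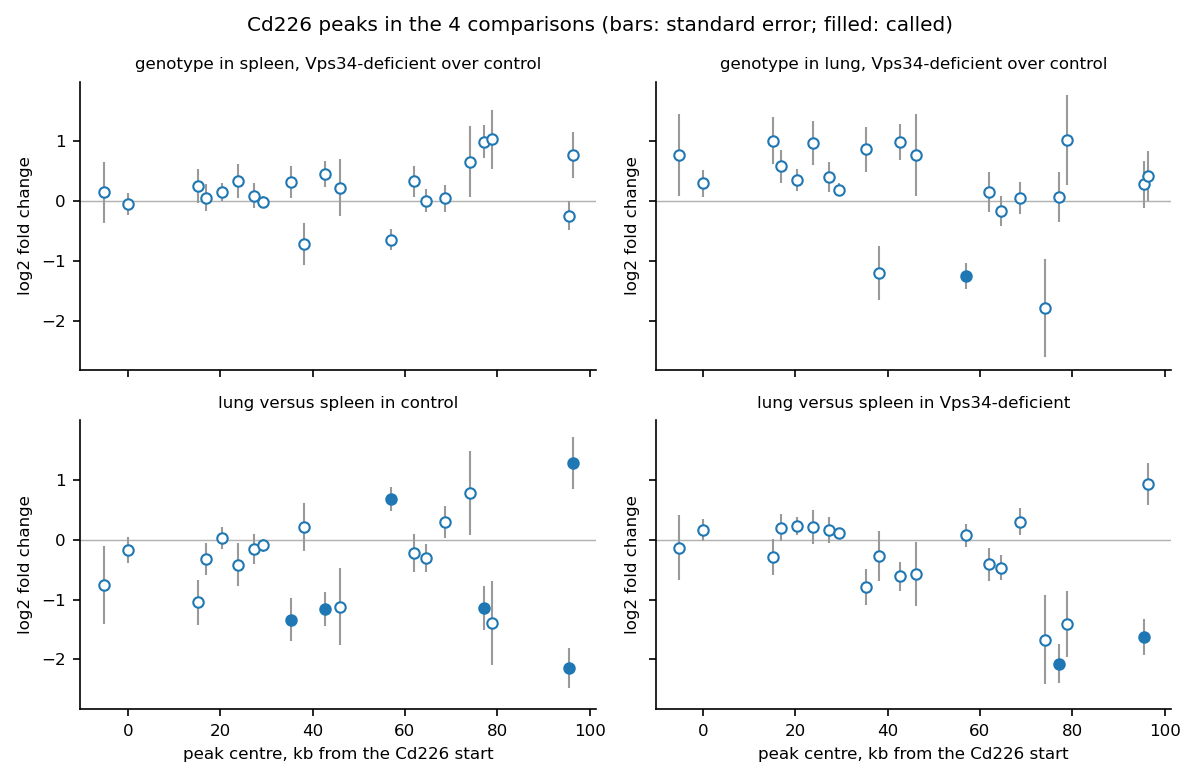
Log2 fold change with its standard error at the 21 Cd226 peaks against the distance of the peak centre from the gene start in kb, in 4 panels for the 4 comparisons, with filled points for calls. The peak 56903 bp downstream is the only call for genotype, at -1.25 in lung, and the tissue calls lie between 35397 and 96380 bp.

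Over the 60 peaks, the tissue comparison gave 7 lower and 8 higher calls in control Tregs and 6 lower and 1 higher in Vps34-deficient Tregs. Over all peaks, 3.53% were called lower and 11.8% higher in control, and 4.72% and 12.5% in Vps34-deficient Tregs. The 8 higher calls in control became 2 to 7 when any 1 library was left out, with 2 and 3 without spleen control replicates 1 and 2, 5 and 4 without spleen Vps34-deficient replicates 1 and 2 and 5 and 4 without lung control replicates 1 and 2, and the 7 lower calls became 3 without spleen control replicate 1. For Vps34-deficient Tregs, lower calls rose to 11 without lung control replicate 2, and higher calls to 4 and 2 without lung control replicates 1 and 2, 2 without spleen Vps34-deficient replicate 1 and 3 without lung Vps34-deficient replicate 1. The median log2 fold change of the 60 peaks was 0.03 and -0.02, beside 0.04 and -0.03 over all peaks.

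Cd96, an Ig-family receptor that shares CD155 with TIGIT (chr16:46035657-46120251, minus strand), had no called change of its summed signal. It was 82.0 and 79.9 CPM in spleen control, 82.8, 77.7, 86.7 and 79.5 CPM in spleen Vps34-deficient, 83.6 and 63.1 CPM in lung control and 77.8 and 83.0 CPM in lung Vps34-deficient libraries. The average log2 fold change was 0.08 ± 0.07 for genotype (adjusted p = 0.542) and -0.02 ± 0.07 for tissue (adjusted p = 0.90, edgeR with Benjamini-Hochberg adjustment). The peak 1305 bp upstream was lower in lung control, at 4.47 and 4.23 CPM against 11.1 and 8.95 CPM in spleen control (edgeR log2 fold change -1.14 ± 0.25, adjusted p = 0.00263), and kept this call without any single library. Vps34-deficient libraries held 8.35, 8.69, 11.7 and 10.8 CPM in spleen and 6.82 and 5.72 CPM in lung, which also did not overlap. The intron peak 34043 bp downstream was higher in lung control, at 2.13 and 1.98 CPM against 0.62 and 0.83 CPM (edgeR log2 fold change 1.58 ± 0.51, adjusted p = 0.0373). That difference rested on 12 to 28 reads a library and was lost in 6 of 10 fits without a library. It was also lost with the replicate block (edgeR adjusted p = 0.0687) or the control libraries alone (edgeR adjusted p = 0.0788). Vps34-deficient libraries held 0.97, 1.22, 0.81 and 1.44 CPM in spleen and 2.11 and 2.54 CPM in lung at this peak. The Cd96 promoter peak stayed between 29.5 and 37.6 CPM, without a call.

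Lag3, whose product binds MHC class II (chr6:124904361-124911705, minus strand), had no peak called in any comparison. Its summed signal was 99.6 and 109 CPM in spleen control, 114, 108, 123 and 110 CPM in spleen Vps34-deficient, 93.3 and 113 CPM in lung control and 109 and 100.3 CPM in lung Vps34-deficient libraries. The average log2 fold change was 0.10 ± 0.06 for genotype (adjusted p = 0.326) and -0.01 ± 0.06 for tissue (adjusted p = 0.909, edgeR with Benjamini-Hochberg adjustment). Its promoter peak held 10.8 and 9.50 CPM in spleen control, 14.3, 9.85, 12.9 and 10.0 CPM in spleen Vps34-deficient, 5.32 and 7.90 CPM in lung control and 8.45 and 6.77 CPM in lung Vps34-deficient libraries. All lung values lay below all spleen values, but the log2 fold changes of -0.52 ± 0.25 and -0.57 ± 0.22 did not pass (edgeR adjusted p = 0.159 and 0.0697). Of its 10 peaks, 7 lie within 10 kb of Ptms as well.

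Havcr2, the gene for TIM-3 (chr11:46454935-46481255, plus strand), had a summed signal of 33.2 and 34.9 CPM in spleen control, 36.7, 38.7, 38.3 and 37.3 CPM in spleen Vps34-deficient, 31.9 and 43.3 CPM in lung control and 34.1 and 33.0 CPM in lung Vps34-deficient libraries. The average log2 fold change was 0.04 ± 0.09 for both genotype (adjusted p = 0.838) and tissue (adjusted p = 0.789, edgeR with Benjamini-Hochberg adjustment). The intron peak 19441 bp downstream was lower in lung for both genotypes, at 4.25 and 3.67 CPM against 7.58 and 6.75 CPM in control and 5.52 and 4.45 CPM against 10.8, 9.17, 9.48 and 8.76 CPM in Vps34-deficient libraries. These log2 fold changes were -0.79 ± 0.25 (adjusted p = 0.031) and -0.88 ± 0.22 (adjusted p = 0.00598, edgeR with Benjamini-Hochberg adjustment). The first was lost without either spleen control or without lung control replicate 2, and the second without lung Vps34-deficient replicate 2. With the replicate block (edgeR adjusted p = 0.0621) or the control libraries alone (edgeR adjusted p = 0.0738) the first was lost as well. The intron peak 7203 bp downstream was called higher in lung control, at 8.08 and 12.8 CPM against 6.24 and 7.37 CPM (edgeR log2 fold change 0.72 ± 0.25, adjusted p = 0.0483), and 9 of 10 fits without a library and 7 other settings lost that call. Its Vps34-deficient libraries held 6.95, 9.66, 8.85 and 9.19 CPM in spleen and 7.63 and 9.53 CPM in lung. The Havcr2 promoter peak ranged from 2.50 to 5.74 CPM and was not called.

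Ligands of these receptors, their cytoplasmic partners and 8 further coinhibitory receptors were summed in the same way. For genotype, averaged over tissues, 0 of 12 ligand genes, 0 of 7 partner genes and 2 of the 8 receptors passed, 1 in each direction, beside the 2.78% lower and 3.54% higher of all genes (edgeR). The median log2 fold changes of the lists were 0.05, -0.04 and -0.04, beside 0.00 over all genes. In lung alone, 1 ligand gene was called lower, beside 2.26% of all genes. It was Nectin1, at 18.3 and 20.6 CPM in control and 10.2 and 12.8 CPM in Vps34-deficient libraries (edgeR log2 fold change -0.73 ± 0.18, adjusted p = 0.0397), with 21.3 and 15.8 CPM in spleen control and 15.4, 17.4, 15.8 and 16.5 CPM in spleen Vps34-deficient libraries. The receptor that fell for both tissues was Pvrig, which binds CD112 beside TIGIT and CD226. Its 2 peaks summed to 4.37 and 3.58 CPM in spleen control, 1.25, 0.61, 0.54 and 0.43 CPM in spleen Vps34-deficient, 4.25 and 6.63 CPM in lung control and 0.32 and 1.27 CPM in lung Vps34-deficient libraries. Every Vps34-deficient library was below every control, with a log2 fold change of -2.61 ± 0.33 (edgeR, Benjamini-Hochberg adjusted p = 0.00026) on few reads. Values were -2.49 ± 0.42 in spleen and -2.83 ± 0.56 in lung. Btla, the receptor for HVEM, was higher, at 114 and 108 CPM in spleen control, 121, 120.0, 121 and 117 CPM in spleen Vps34-deficient, 104 and 111 CPM in lung control and 124 and 124 CPM in lung Vps34-deficient libraries (edgeR log2 fold change 0.17 ± 0.05, adjusted p = 0.0334).

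For tissue, 5 ligand genes were higher and 1 lower in lung, 2 partners were lower and 1 of the 8 receptors was lower, where 16.6% of all genes were higher and 14.4% lower (edgeR). Among the ligand genes, Nectin3 was higher by 0.38 ± 0.10 on the log2 scale (adjusted p = 0.0076), Hmgb1 by 0.15 ± 0.04 (adjusted p = 0.00862), Fgl1, which encodes a ligand of LAG-3, by 0.62 ± 0.18 (adjusted p = 0.0127) and Pdcd1lg2, the gene for PD-L2, by 0.27 ± 0.08 (adjusted p = 0.0138), all by edgeR with Benjamini-Hochberg adjustment. The ligand gene that was lower in lung was Lgals9, which encodes the TIM-3 ligand galectin-9 (edgeR log2 fold change -0.28 ± 0.09, adjusted p = 0.030). Prkcq, a kinase of T cell receptor signaling, and Fyn, a Src-family kinase, fell by 0.23 ± 0.06 and 0.13 ± 0.04 on the log2 scale (edgeR adjusted p = 0.0113 and 0.0256). Cd160 was lower in lung, at 17.9, 14.5, 15.6 and 18.4 CPM against 23.0 to 29.2 CPM in spleen (edgeR log2 fold change -0.59 ± 0.11, adjusted p = 0.000624).

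Genes whose summed accessibility followed that of each receptor over the 10 libraries were ranked by Pearson correlation of log2 CPM among 13811 or 13812 genes. These values describe libraries that share tissue, genotype and depth, and carry no test. For Tigit they were Gm5127 (0.984), Eml1 (0.982), Olfr530 (0.978), Ctsh (0.976) and Barx2 (0.975). For Pdcd1 they were Wfs1 (0.970), Mapk6 (0.963) and Tbc1d30 (0.949), and for Cd226 Car3 (0.988), Cxadr (0.983) and Mocs2 (0.978). For Cd96 they were 4930452B06Rik (0.933), D630036H23Rik (0.921) and Cbr4 (0.914), for Lag3 Rc3h1 (0.911), Sh2b3 (0.906) and Gm29666 (0.905), and for Havcr2 Il2ra (0.954), Myo1h (0.953) and Hormad2 (0.918).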

How the data were processed

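Reads had been trimmed, aligned with BWA, freed of duplicates with Picard, shifted for Tn5 insertion and limited to nucleosome-free fragments by the authors, who called peaks per sample with MACS2 and kept those in at least 50% of replicates of a genotype. The deposited values are raw counts of reads per peak, made with bedtools. Both mates appear to have been counted, since 91.5% to 96.5% of counts were even. The methods name mm9 and the processing notes mm10, and 51.2% of 21924 gene starts lay in a peak on GRCm38, so GRCm38 was used. For spleen, the methods and the labels give opposite group sizes. Which is right could not be checked, and the labels were used.

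Counts were filtered with filterByExpr, TMM-scaled and fitted in edgeR 4.0.16 (R 4.3.3) with 4 group means over all 10 libraries, which share 1 estimate of the spread (97109 peaks tested). A peak was called where adjusted p was under 0.05 and log2 fold change beyond 0.5 either way. Gene sums over peaks in or within 10 kb were fitted likewise for 17619 protein-coding genes, with average effects from a model of tissue and genotype (calls at an adjusted p below 0.05). The procedure was tested on simulated counts with a common spread and no tissue effect, which does not show how it performs on these data. Replicates differed by more than sampling alone gives (2.77 to 5.37 chi-square units per degree of freedom), although counting both mates itself raises these values. Members and lists were chosen with earlier results of these data known. Apart from those at the edge of the 10-kb window, named peaks were the called ones and each gene's promoter peak. Uncalled peaks named besides were those of Tigit 5000 and 13481 bp downstream and that of Pdcd1 17111 bp downstream. Other genes were named by correlation rank (5 for Tigit, 3 for the others) or, in the pathway lists, where an average effect was called (up to 4 per list, by smallest p). Nectin4, also called higher in lung, was left out by that limit. Added outside this rule were Nectin1, called for genotype in lung alone, and Lgals9, the only ligand gene called lower in lung than in spleen. Alternatives were other scalings, DESeq2 1.42.0, no filter, halved counts, a replicate block, fewer libraries and fewer peaks. Single-cell data were not analysed here.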

Additional observations from a re-analysis of the deposited data

Results flagged for a closer look

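In spleen Vps34-deficient Tregs, replicate 1 stood apart from the other 3 libraries at the Tigit intron peak 8791 bp downstream of the start, with 9.876 CPM against 7.46 to 7.76 CPM. The same library had a summed Pdcd1 signal of 242.1 CPM, against 219.8 to 220.7 CPM in the others. Such gaps, measured by Dixon's test, were seen in 2 of 29 groups of 4 libraries examined, and chance gives about 1 in 20.

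At the Pdcd1 intron peak 10051 bp downstream, every lung control library was above the spleen controls and every lung Vps34-deficient library was below the spleen Vps34-deficient ones. The interaction of -1.7542 on the log2 scale did not pass adjustment in edgeR (Benjamini-Hochberg adjusted p = 0.201) and passed in DESeq2 (adjusted p = 0.0313).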

How the results depend on the processing

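The average effects on the 6 gene sums kept direction and call in 77 of 84 comparisons with an alternative setting and in 110 of 120 with a library left out. Counts of calls among the 60 peaks changed more often, and were the same number in 38 of 71 and 43 of 90. In spleen, lower calls for genotype were 2 and became 1 with the replicate block, and higher calls were 0 and became 1 on halved counts or with spleen libraries alone. No filter, halved counts, DESeq2, spleen libraries alone or no fold threshold gave 3 lower. In lung, lower calls went from 6 to 5 with the replicate block and 4 with lung libraries alone, and higher calls from 0 to 1 with median-of-ratios scaling or DESeq2. Lung-over-spleen calls in control went from 8 higher to 4 with the replicate block, 5 with control libraries alone and 6 with library size or median-of-ratios scaling, no filter, halved counts or DESeq2. The 7 lower became 10 with library size scaling, no filter or halved counts, 9 with median-of-ratios scaling, 8 with DESeq2 and 5 with the replicate block or control libraries alone. In Vps34-deficient Tregs, 6 lower became 10 with library size scaling, no filter or those libraries alone, 7 on halved counts and 4 with the replicate block, and 1 higher became 2 with those libraries alone. The interaction was called at 1 peak by DESeq2. The summed tissue effect reversed at Cd96 (0.0042 with median-of-ratios scaling, 0.0056 with DESeq2, 0.088 with gene body and promoter peaks) and at Lag3 (0.0077, 0.0078 with DESeq2, 0.0014 on halved counts, 0.012 with the replicate block), none of them a call. The Pdcd1 genotype effect in spleen was -0.016 with gene body and promoter peaks. The cause of these shifts was not tested.

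With a library left out, lower calls for genotype ranged from 1 to 4 in spleen and 3 to 6 in lung, and higher calls from 0 to 1 and 0 to 5, the 5 without lung control replicate 1. Tissue calls in control ranged from 3 to 10 lower and 2 to 7 higher, and in Vps34-deficient Tregs from 5 to 11 lower and 1 to 4 higher. Reversed effects on gene sums, no calls among them, ranged from -0.13 to 0.0013 at Cd226, -0.067 to 0.083 at Cd96, -0.049 to 0.032 at Lag3 and -0.058 to 0.092 at Havcr2 for tissue, and from -0.018 to 0.14 at Havcr2 for genotype. The Tigit interaction ranged from -0.19 to 0.023 and the Pdcd1 genotype effect in spleen from -0.030 to 0.067.

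Same-numbered libraries did not deviate together (correlation of deviations -0.098 to 0.063), so replicate numbers were not taken as pairs, and the block gave 1 lower call in spleen and 4 higher tissue calls in control. With 2 libraries in 3 of the groups, smaller changes could not be told from the spread.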
